A study of Homo sapiens with 12 samples.

Results

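The genes described here are 10 chemokine and inflammatory cytokine genes, picked by symbol: CXCL1, CXCL2, CXCL3, CXCL5, CXCL8, CCL20, IL1A, IL1B, IL6 and LIF. Each symbol matched 1 row, so the set holds 10 of the 58721 genes in the gene tables. They were measured by strand-specific poly(A) RNA-seq in Pa-Tu-8902 and MIA PaCa-2, human pancreatic cancer lines grown in DMEM with 10% FBS. Both lines are stable selected derivatives that carry iDox-shGOT1, a short hairpin RNA against the aspartate transaminase gene GOT1 that doxycycline (dox) switches on. The line of a library was taken from its title. In the stretch read of a supplementary table of the study, the per-library count columns named for Pa-Tu-8902 hold the counts of the libraries titled MIA PaCa-2, while the mean columns beside them follow the libraries titled Pa-Tu-8902, so that the direction of every comparison between lines depends on the titles. Each line gave 3 libraries without dox (−dox) and 3 libraries after 5 days of dox (+dox), so the −dox controls carry the hairpin too. The study's methods give the dose as 1 µg/mL, whereas the sample labels print 1 µM/mL. Every dox-treated library analysed here carries the hairpin, so a dox effect and a GOT1 effect cannot be told apart, and which of the study's hairpins was used is not given in the sources used here. Nothing says that the replicates came from separate cultures, so p-values measure only the spread between these libraries.

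Secreted CXC chemokines of the CXCL1 to CXCL8 group bind the receptors CXCR1 and CXCR2 and attract neutrophils, and CCL20 binds CCR6 and attracts lymphocytes and dendritic cells. IL1A and IL1B are the agonists of the interleukin-1 receptor IL1R1, which signals to the transcription factor NF-κB, and NF-κB in turn drives transcription of most genes in this set. IL6 and LIF signal through receptors that share the subunit IL6ST (gp130) and activate STAT3; in pancreatic tumors these factors are known as signals between cancer cells and the stroma.

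Libraries held 26226537 to 43406137 counts, so that the limit left by 0 counts (taken as 3) was 0.0691 to 0.114 CPM (counts scaled to library size), for counting error only. GOT1 checked the dox labels. It stood at 78.3 to 83.4 TPM, the relative level of a gene corrected for transcript length, in −dox and 3.29 to 4.51 in +dox Pa-Tu-8902, and at 38.9 to 44.1 against 1.68 to 1.95 TPM in MIA PaCa-2. The 5 epithelial markers summed to 6597 to 8868 TPM in Pa-Tu-8902, against 2716 to 3059 in MIA PaCa-2, where CDH1 was at or under 3 counts in every −dox library. EPCAM was near 0 there too (0.14 ± 0.052 TPM in −dox MIA PaCa-2 against 548 ± 4.65 in −dox Pa-Tu-8902), so keratins made up that sum. In MIA PaCa-2 KRT19 went from 396.5 ± 15.1 to 130 ± 2.23 TPM with dox, while KRT8 and KRT18 were higher with dox. The 4 mesenchymal markers summed to 4.62 to 12.9 TPM in Pa-Tu-8902, against 3539 to 4228 in MIA PaCa-2, and VIM made up nearly all of the latter sum (3932 ± 348 TPM in −dox). ZEB1 was higher in −dox MIA PaCa-2 too, whereas CDH2 (0.903 against 0.0033 TPM) and FN1 (0.75 against 0.07 TPM) were higher in −dox Pa-Tu-8902. The 6 leukocyte markers summed to 0.48 to 1.67 TPM in Pa-Tu-8902, against 2.14 to 4.75 in MIA PaCa-2, with PTPRC and CSF1R at or under 3 counts in every library. CD14 and ITGAM were above that floor in both lines, with CD14 at 13 to 28 counts and ITGAM at 3 to 10 counts in −dox Pa-Tu-8902. CD14 made up most of the leukocyte sum of MIA PaCa-2. It stood there at 3.84 ± 0.361 TPM (133 to 139 counts) without and 1.64 ± 0.22 TPM (39 to 56 counts) with dox. The 6 fibroblast and endothelial markers, with DCN and LUM at or under 3 counts in every library, summed to 3.79 to 6.65 TPM without and 17.7 to 21.6 TPM with dox in Pa-Tu-8902. For MIA PaCa-2 the sums were 192.5 to 248 TPM without and 341 to 398.5 TPM with dox. COL1A1 carried the sum of Pa-Tu-8902 (4.5 ± 1.58 TPM without and 19.6 ± 1.90 with dox) and COL1A2 that of MIA PaCa-2 (226 ± 29.7 and 372 ± 29.4 TPM), while COL1A2 in Pa-Tu-8902 had 41 counts in all without and 3 with dox. The part of these differences in the dox results was not tested.

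Each line had its own leading genes, and since these are bulk samples, fewer expressing cells and less RNA per cell cannot be told apart. In −dox Pa-Tu-8902 the set was dominated by IL1A, the cell-associated interleukin-1, at 108 ± 2.84 TPM (SD, n = 3), which was 69.9% of the summed TPM of the 10 genes. LIF, a differentiation and self-renewal cytokine, followed at 25.4 ± 1.38 TPM and IL1B, the secreted interleukin-1 that needs cleavage, at 9.23 ± 1.19. CXCL1 came next at 4.11 ± 0.0851 TPM, and neighbours among these leading genes did not overlap between libraries. CXCL8 (2.57 ± 0.547 TPM) and CXCL2 (2.46 ± 0.442) overlapped each other, as did CCL20 (1.3 ± 0.394) and CXCL3 (1.28 ± 0.107). IL6 and CXCL5 ended the order near 0.

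In −dox MIA PaCa-2, CXCL1 led at 116 ± 3.69 TPM, 57.5% of the set, and CXCL8 followed at 49.3 ± 1.21 TPM, 24.5% of the set. LIF stood at 17.2 ± 1.90 TPM, CXCL5 at 12.6 ± 1.15, CXCL2 at 5.16 ± 0.612 and CXCL3 at 1.41 ± 0.362, and no neighbours in this order overlapped. The summed level of the 10 genes was 149 to 157 TPM in the −dox libraries of Pa-Tu-8902 and 200.2 to 204 TPM in those of MIA PaCa-2.

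**Figure D1:**
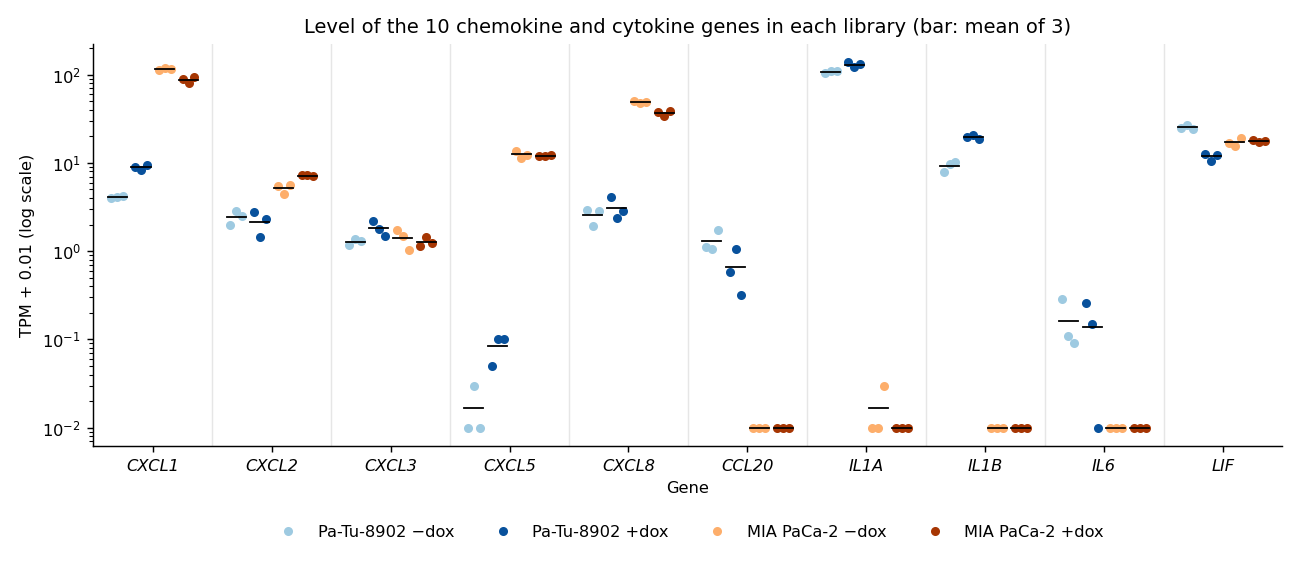
TPM + 0.01 on a log axis for each of the 10 genes in the 12 libraries, with points for libraries and a bar for the mean of the 3 libraries of a group (light, −dox; dark, +dox). IL1A, IL1B and CCL20 lie at the bottom of the axis in MIA PaCa-2, whereas CXCL1, CXCL5 and CXCL8 lie higher in MIA PaCa-2 than in Pa-Tu-8902.

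Several genes were near 0 counts and are set apart here. IL1B, CCL20 and IL6 had 0 counts in all 6 MIA PaCa-2 libraries. IL1A had 1 count in the 6 MIA PaCa-2 libraries together, in −dox replicate 3. In Pa-Tu-8902, IL6 had 4, 2 and 1 counts without dox and 5, 3 and 0 with dox. CXCL5 had 0, 1 and 0 counts in −dox and 2, 7 and 5 in +dox Pa-Tu-8902. The ratio of these CXCL5 sums, corrected for library size, was 11.9 with an exact 95% Poisson interval of 1.81 to 502 that covers counting error only. CCL20 was sparse as well, with 13, 16 and 23 counts without dox and 8, 20 and 4 with dox. At this depth IL6 was barely detectable in Pa-Tu-8902, and no fold is given for it.

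The 5 CXC genes measured here and CXCL6 lie in 1 cluster on chromosome 4 (GRCh38, GENCODE release 44). CXCL8 (ENSG00000169429) spans chr4:73740519-73743716 and CXCL1 (ENSG00000163739) spans chr4:73869393-73871308 on the plus strand. CXCL5 (ENSG00000163735) spans chr4:73995642-73998677, CXCL3 (ENSG00000163734) spans chr4:74036589-74038807 and CXCL2 (ENSG00000081041) spans chr4:74097040-74099196 on the minus strand. IL1A (ENSG00000115008, chr2:112773925-112784493) and IL1B (ENSG00000125538, chr2:112829751-112836816) are neighbours on chromosome 2, and CCL20 (ENSG00000115009, chr2:227805739-227817564) lies far from them. IL6 (ENSG00000136244) is at chr7:22725884-22732002 and LIF (ENSG00000128342) at chr22:30240453-30246759. CXCL1, CXCL2 and CXCL3 are close paralogs, yet their expected counts were whole numbers in all 12 libraries, and among the 10 genes only CXCL5 had a fractional count, in 1 library.

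The promoters of the CXC genes share a sequence, shown because the genes differ so much in level between the lines. RefSeq promoter windows of 250 bases before to 50 after the start (GRCh38.p14) were given for 9 of the 10 genes, all but LIF. The 10-base NF-κB consensus, searched by its standard degenerate form on both strands, matched in 6 of these genes and in 5.91% of all 35116 windows. The letters GGGAATTTCC were found in CXCL1, CXCL2, CXCL3 and CXCL5, and in 51 windows of all 35116 (0.145%). The shorter GGAATTTCC, contained in the longer motif, was found in those 4 and in CXCL8, and in 0.461% of all windows. Both strings were taken from the CXCL1 match itself. The CXCL1 match was thus fixed in advance, and the shares of all windows are given as a description, not as a test. In the following 30-base windows, written 5′ to 3′ on the strand of the gene, capitals mark the match, which starts 79 bases before the start in CXCL1, CXCL3 and CCL20, 78 in CXCL2, 91 in CXCL5 and CXCL8, and 73 in IL6. The CCL20 match reads on the opposite strand. The start is the RefSeq start of each window, and the CCL20 and IL6 windows lie inside the GENCODE spans given above.
CXCL1 (chr4:73869304-73869333, plus strand): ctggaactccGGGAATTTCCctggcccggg
CXCL2 (chr4:74099254-74099283, minus strand): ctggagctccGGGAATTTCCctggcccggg
CXCL3 (chr4:74038749-74038778, minus strand): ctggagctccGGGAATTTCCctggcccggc
CXCL5 (chr4:73998749-73998778, minus strand): catgagttcaGGGAATTTCCccagcatccc
CXCL8 (chr4:73740468-73740497, plus strand): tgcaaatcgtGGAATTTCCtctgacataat
IL6 (chr7:22727117-22727146, plus strand): tatcaaatgtGGGATTTTCCcatgagtctc
CCL20 (chr2:227813753-227813782, plus strand): tgatcaatggGGAAAACCCCatgtggcaac

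IL1A and IL1B held no match to the NF-κB consensus in these windows. The AP-1 motif TGANTCA was found in IL1A and CXCL8 and in 7.71% of all windows, and TTCNNNGAA, the STAT form, was found in IL1B and CXCL5 and in 7.66%. These matches describe letters only and show no binding.

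The messages also hold AU-rich elements in their 3′ untranslated regions (UTRs), where proteins such as ZFP36 (tristetraprolin) bind and speed decay. The pentamer ATTTA occurred 2.19 to 14.1 times per kilobase of 3′ UTR in the canonical transcripts of the 10 genes, with a median of 7.48, against a median of 1.58 over 18876 coding genes. The nonamer TTATTTATT was found in 6 of the 10 genes (CXCL1, CXCL2, CXCL3, CXCL8, IL1B and LIF) and in 8.66% of all these genes. CXCL2 held 5 copies of the nonamer and LIF, with the longest 3′ UTR of the set (3198 bases), held 2. The pentamer is not particular to the set, since GOT1 held it 5.91 times per kilobase. That was above CXCL5 (5.51), IL1A (4.38) and LIF (2.19), and LIF exceeded only 60.3% of genes.

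For most of the genes, but not for all, the level came mainly from 1 coding transcript. CXCL1-201 took 96.9% of the CXCL1 counts in −dox MIA PaCa-2, CXCL8-201 took 98.9% of the CXCL8 counts there, and IL1B-201 took 98.4% of the IL1B counts in +dox Pa-Tu-8902. LIF-201 took 99.8% of the LIF counts in −dox Pa-Tu-8902. CXCL2 was more mixed, since CXCL2-202 took 89.2% of its counts but 71.7% of its TPM in +dox MIA PaCa-2. CXCL3-201 took 74.8% of the CXCL3 counts in that group. The sparse CCL20 was split in +dox Pa-Tu-8902, with 48.7% of its counts in CCL20-201 and 51.3% in CCL20-202. IL6-206 took 60.5% of the few IL6 counts there.

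The −dox libraries of the lines were compared with each other to give the baseline. Of the 9 genes tested, 7 passed (adjusted p below 0.01 and a fold of at least 1.5 by edgeR's quasi-likelihood test), 3 higher in Pa-Tu-8902 and 4 higher in MIA PaCa-2. This has to be read against 58.1% of all tested genes, 28.9% higher and 29.3% lower in Pa-Tu-8902, because these are unlike lines. With no limit on the fold 8 of the 9 passed, against 72.9% of all genes. Likewise 8 of the 9 genes did not overlap between the lines, as did 81.7% of all tested genes.

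IL1A, IL1B and CCL20 were higher in Pa-Tu-8902. For IL1A, 14520 counts in the 3 Pa-Tu-8902 libraries stood against 1 count in MIA PaCa-2, a ratio of 14871 with an exact 95% Poisson interval of 2669 to 587425. IL1B was at least 79.3-fold and CCL20 at least 4.56-fold higher, each taken as the lowest Pa-Tu-8902 library over the floor of 3 counts in a MIA PaCa-2 library. With dox these bounds were 1548 for IL1A, 163 for IL1B and 1.14 for CCL20. The part of other cell types in the IL1A level was not tested.

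CXCL1, CXCL2, CXCL5 and CXCL8 were higher in MIA PaCa-2. CXCL1, the GRO-α chemokine, was at 112, 119 and 117 TPM there and at 4.02, 4.11 and 4.19 TPM in Pa-Tu-8902, and the level in Pa-Tu-8902 was lower by 4.86 on the log2 scale (log2 difference −4.86, SE 0.12, adjusted p = 3.56e-13 in edgeR). CXCL8 (interleukin-8) was at 50.5, 48.1 and 49.3 TPM against 2.95, 1.94 and 2.81 TPM, a log2 difference of −4.36 (SE 0.13, edgeR adjusted p = 2.04e-12). CXCL2 differed less, at 5.40, 4.46 and 5.61 TPM in MIA PaCa-2 and 1.99, 2.87 and 2.51 TPM in Pa-Tu-8902 (log2 difference −1.22, SE 0.19). None of these 3 genes overlapped between the lines. CXCL5, which encodes ENA-78, had 2147 counts against 1, a ratio of 2096 with an exact 95% Poisson interval of 376 to 82837.

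LIF and CXCL3 did not pass between the lines. LIF was at 25.0, 27.0 and 24.3 TPM in Pa-Tu-8902 and at 16.7, 15.6 and 19.3 TPM in MIA PaCa-2, and its groups did not overlap. Its log2 difference of 0.49 (SE 0.07, edgeR adjusted p = 2.74e-05) lay under the fold limit, and without −dox replicate 3 of MIA PaCa-2 it was 0.59 and passed. CXCL3 was at 1.16, 1.37 and 1.3 TPM in Pa-Tu-8902 and 1.75, 1.46 and 1.03 TPM in MIA PaCa-2, which overlapped (log2 difference −0.09, SE 0.28, edgeR adjusted p = 0.784). CXCL3 thus overlapped between lines in which CXCL1 and CXCL5, of the same cluster, stood far apart. Of the genes listed here, it lies between CXCL5 and CXCL2, and CXCL2 differed less (log2 difference −1.22).

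**Figure D2:**
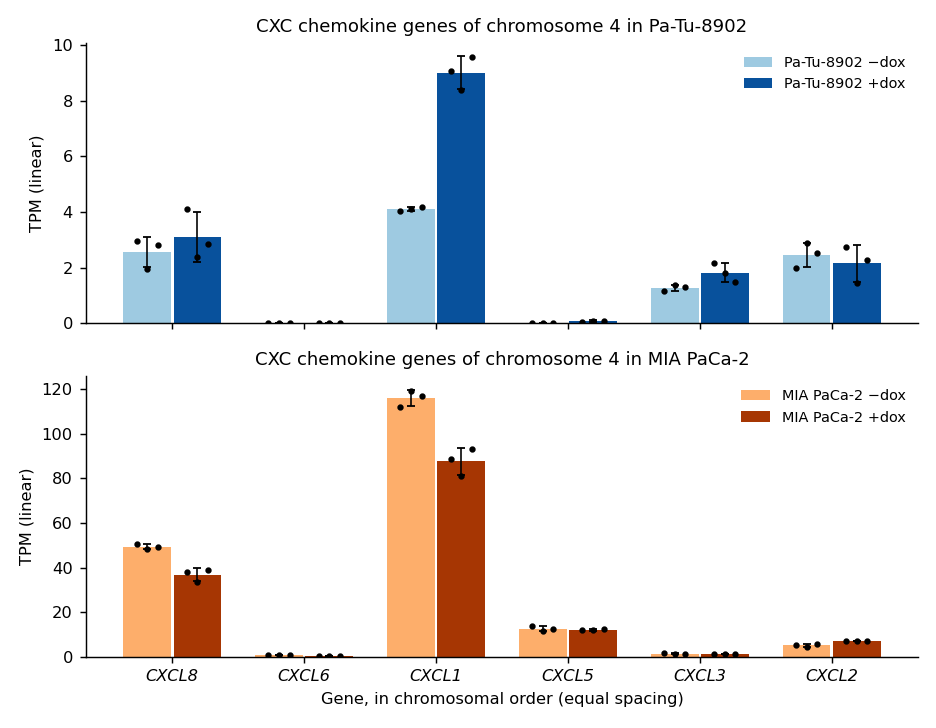
Mean TPM (bars from 0, linear axes that differ between panels) with SD and the 3 libraries as points for the CXC chemokine genes of the chromosome 4 cluster in chromosomal order, without and with dox. CXCL1 was the highest gene of the cluster in both lines, at 4.11 TPM in −dox Pa-Tu-8902 and 116 TPM in −dox MIA PaCa-2, and CXCL6 had 0 counts in every Pa-Tu-8902 library.

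Dox changed the set of Pa-Tu-8902 in both directions. CXCL1 and IL1B rose about as much, and LIF fell. Of the 8 genes tested, 3 passed (2 higher, 1 lower) by edgeR, and DESeq2 called the same number, CXCL1, IL1B and LIF. Over all tested genes 16.3% passed, 9.22% higher and 7.12% lower, and the groups of 58.5% did not overlap. Of the 8 genes, 5 did not overlap, namely CXCL1, CXCL3, IL1A, IL1B and LIF. CXCL5 and IL6 had too few counts to be tested. With no limit on the fold the members called were again 3, where 38.1% of all tested genes passed. The median log2 fold change was 0.23 over the 8 genes and 0.0014 over all tested genes.

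LIF, a ligand of the STAT3 pathway, fell in every +dox library. Its level was 25.0, 27.0 and 24.3 TPM without dox and 12.8, 10.6 and 12.1 TPM with dox. Normalised read counts were 2405 ± 38.7 and 1043 ± 80.9 (SD, n = 3), and the log2 fold change was −1.21 (SE 0.06, edgeR adjusted p = 1.43e-07). Over all alternatives and with each library left out in turn it stayed between −1.24 and −1.10.

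IL1B rose from 7.89, 9.68 and 10.1 TPM to 19.5, 20.7 and 18.8 TPM, with no overlap. Its normalised read counts were 324 ± 51.1 and 642 ± 54.1, a log2 fold change of 0.99 (SE 0.12, edgeR adjusted p = 4.71e-05). IL1A was already high and moved little, from 105, 109 and 110.1 TPM to 138, 121 and 131 TPM. The groups of IL1A did not overlap, but its log2 fold change of 0.19 (SE 0.06, edgeR adjusted p = 0.0158) passed neither limit. IL1A remained the highest gene of the set with dox, at 72.9% of the summed TPM, while IL1B, at 11.0%, stood above LIF, at 6.63%.

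Among the chemokines, CXCL1 rose from 4.02, 4.11 and 4.19 TPM to 9.08, 8.39 and 9.57 TPM. Its normalised read counts were 86.7 ± 3.16 and 174 ± 4.37, and the log2 fold change was 1.00 (SE 0.12, edgeR adjusted p = 5.37e-05). All +dox libraries were thus above all −dox libraries, yet far below the 112 TPM of the lowest −dox MIA PaCa-2 library. CXCL8 was at 2.95, 1.94 and 2.81 TPM without and 4.09, 2.38 and 2.84 TPM with dox, and CXCL2 at 1.99, 2.87 and 2.51 against 2.75, 1.43 and 2.28 TPM. Both overlapped and did not pass, with log2 fold changes of 0.27 (SE 0.22) and −0.09 (SE 0.23). CXCL3, at 1.16, 1.37 and 1.3 TPM and then 2.16, 1.79 and 1.49 TPM, had a log2 fold change of 0.31 (SE 0.23, edgeR adjusted p = 0.299). CCL20 was at 1.10, 1.04 and 1.75 TPM and then 0.57, 1.06 and 0.31 TPM, which overlapped, with a log2 fold change of −0.96 (SE 0.46, edgeR adjusted p = 0.106) that moved between −1.61 and −0.64 when libraries were left out. Of CXCL1, CXCL2 and CXCL3, which carry the same 10 letters upstream, CXCL1 passed and the other two did not.

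In MIA PaCa-2, 0 of the 6 genes tested passed by edgeR and 0 by DESeq2, where 12% of all tested genes passed by edgeR, 4.36% higher and 7.64% lower. Of the 6, 3 (CXCL1, CXCL2 and CXCL8) had an unadjusted p below 0.05, and the same 3 did not overlap between groups, as 52.9% of all tested genes did not. The share of all genes at that unadjusted p was not computed, and 27.2% had an adjusted p below 0.01 by edgeR. The median log2 fold change was −0.13 over the 6 genes and −0.0089 over all tested genes. IL1A, IL1B, CCL20 and IL6 were at or under the floor with and without dox.

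CXCL1 and CXCL8, the leading genes of this line, lay just inside the fold limit. CXCL1 was at 112, 119 and 117 TPM without dox and 88.6, 81.0 and 93.0 TPM with dox, so every +dox library was below every −dox library. Its log2 fold change was −0.50 (SE 0.09, edgeR adjusted p = 0.00156). CXCL8 was at 50.5, 48.1 and 49.3 TPM and then 37.9, 33.6 and 38.8 TPM, a log2 fold change of −0.53 (SE 0.09, edgeR adjusted p = 6.96e-04). Without +dox replicate 3 of MIA PaCa-2 the value for CXCL8 was −0.62 and passed. With no limit on the fold both genes passed, and 27.2% of all tested genes did so. CXCL2 pointed the other way, at 5.40, 4.46 and 5.61 TPM and then 7.22, 7.25 and 7.08 TPM, with a log2 fold change of 0.34 (SE 0.14, edgeR adjusted p = 0.0773).

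The other genes of MIA PaCa-2 moved by less. CXCL5 was at 13.8, 11.5 and 12.4 TPM and then 11.9, 11.9 and 12.4 TPM (log2 fold change −0.10, SE 0.08). LIF was at 16.7, 15.6 and 19.3 TPM and then 18.2, 17.1 and 17.9 TPM (log2 fold change −0.03, SE 0.07), and CXCL3 at 1.75, 1.46 and 1.03 and then 1.12, 1.43 and 1.22 TPM (log2 fold change −0.16, SE 0.28). All 3 overlapped between −dox and +dox. Summed over the 10 genes, the level was 200.2 to 204 TPM without and 152 to 170.4 TPM with dox, whereas in Pa-Tu-8902 it was 149 to 157 and then 167 to 189 TPM.

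**Figure D3:**
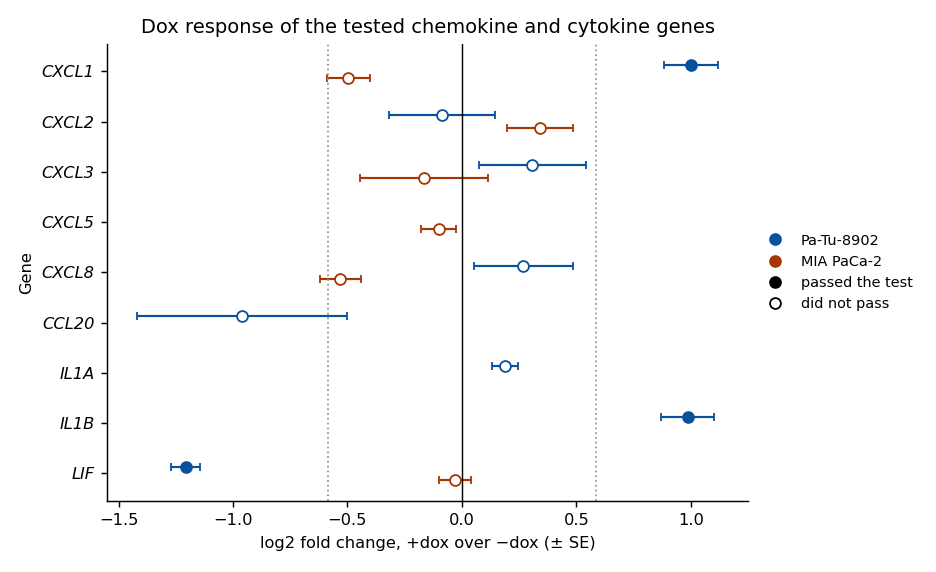
log2 fold change of +dox over −dox with its SE from edgeR for the tested genes in Pa-Tu-8902 (blue) and MIA PaCa-2 (orange), filled where the gene passed both limits, with dotted lines at a fold of 1.5. CXCL1 lies at 1.00 in Pa-Tu-8902 but at −0.50 in MIA PaCa-2, and LIF at −1.21 and −0.03.

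Whether the dox response differed between the lines was tested by the interaction contrast over all 12 libraries. It passed for 3 of the 9 genes tested (CXCL1 and CXCL5 higher, LIF lower in Pa-Tu-8902), and for 10.4% of all tested genes, 6.56% higher and 3.86% lower. IL1A, IL1B and CCL20 were among these 9 only through their counts in Pa-Tu-8902, and CXCL5 only through those in MIA PaCa-2. The count of 3 in 9 is thus not a share to compare with that of all genes. With no limit on the fold 3 genes passed as well, against 16.9% of all tested genes. For LIF the response in Pa-Tu-8902 was below that in MIA PaCa-2 by a log2 difference of −1.18 (SE 0.09, edgeR adjusted p = 9.13e-08). For CXCL1 it was above by 1.5 (SE 0.16, edgeR adjusted p = 1.69e-06), with the 2 lines on opposite sides of 0. These 2 differences passed in every alternative and with each library left out. CXCL8 showed a difference of 0.80 (SE 0.22, edgeR adjusted p = 0.0111) that did not pass, while DESeq2 gave 0.81 with an adjusted p of 5.63e-04. It also passed without +dox replicate 2 of Pa-Tu-8902 (0.96), without −dox replicate 3 of MIA PaCa-2 (0.85) or without +dox replicate 3 of MIA PaCa-2 (0.89). The difference of 3.28 for CXCL5 (SE 0.80, edgeR adjusted p = 0.00549) rested on the 1 and 14 counts of Pa-Tu-8902. It was lost in DESeq2 (adjusted p = 0.0175), in limma on TPM (adjusted p = 0.0618), with the replicate number as a block (adjusted p = 0.0106), and without −dox replicate 1 (2.88), −dox replicate 3 (2.86), +dox replicate 2 (2.99) or +dox replicate 3 (3.14) of Pa-Tu-8902. Without −dox replicate 2 of Pa-Tu-8902, which holds the 1 count, the value was 5.19. For IL1A, IL1B and CCL20 the response of MIA PaCa-2 could not be measured, since it had at most 1 count of each, and the difference of 1.09 that limma called for IL1B sets the rise in Pa-Tu-8902 against libraries at 0.

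Among 15 receptors and antagonists of these cytokines, 9 were tested in Pa-Tu-8902, where IL1R1, LIFR and OSMR rose and IL1RN fell, against 16.3% of all tested genes that passed. IL1R1, the signalling receptor for both interleukin-1 forms, rose from 116 to 176 normalised read counts (log2 fold change 0.60, SE 0.12). LIFR, which pairs with IL6ST to bind LIF, rose by 0.63 (SE 0.08), opposite in sign to LIF. Without −dox replicate 3 LIFR was at 0.58 and did not pass. IL6ST, the other subunit, had the sign of LIF, with a log2 fold change of −0.51 (SE 0.07, edgeR adjusted p = 1.20e-04) that lay under the fold limit. OSMR, the partner for oncostatin M, rose by 0.78 (SE 0.05). IL1RN, the interleukin-1 receptor antagonist, fell from 36.4 ± 11.0 to 14.0 ± 5.15 normalised read counts (log2 fold change −1.33, SE 0.35, edgeR adjusted p = 0.00880). The call for IL1RN was lost when −dox replicate 1 (−1.37), −dox replicate 3 (−1.07), +dox replicate 1 (−1.11) or +dox replicate 3 (−1.25) was left out, and in 3 other alternatives. In MIA PaCa-2 0 of 9 tested passed by edgeR (12% of all tested genes did) and 0 by DESeq2. An unadjusted p below 0.05 was seen for 6, a count for which no share over all genes was computed. The interaction passed for 4 of 10 tested, where 10.4% of all tested genes passed. IL1R1 (1.07, SE 0.13), LIFR (1.03, SE 0.16) and OSMR (0.78, SE 0.10) were higher in Pa-Tu-8902, and IL6ST (−0.91, SE 0.11) was lower. Limma on TPM called neither LIFR (1.26, adjusted p = 0.0141) nor IL6ST (−0.69, adjusted p = 0.126). At baseline the gap in IL1R1 ran against that in its ligands, with 107 normalised read counts in Pa-Tu-8902 against 1298 in MIA PaCa-2. ACKR3, a scavenger receptor, had 0 counts in −dox Pa-Tu-8902 and 228 ± 4.35 normalised read counts in −dox MIA PaCa-2. IL1RAP, the IL1R1 co-receptor, was higher in Pa-Tu-8902 at baseline by 4.90 (SE 0.15). CXCR1, CXCR2 and CCR6, the receptors of the chemokines measured, had too few counts to be tested in any comparison, as had ACKR1 and IL1R2.

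Of the genes that carry or restrain NF-κB and STAT3 signalling, 20 were listed and all were tested in each comparison. The list was chosen with earlier results of these data known, so its counts beside all genes are a description, not a test. In MIA PaCa-2, 9 of the 20 rose and 0 fell (over all genes, 4.36% rose and 7.64% fell). Their median log2 fold change was 0.49, against −0.0089 over all genes. BIRC3, an NF-κB target that encodes a ubiquitin ligase of the pathway, rose from 269 ± 2.55 to 1879 ± 49.1 normalised read counts (log2 fold change 2.80, SE 0.07, edgeR adjusted p = 1.15e-09). CEBPD rose by 1.5 (SE 0.11) and TNFAIP3, the feedback inhibitor A20, by 1.42 (SE 0.15), although limma on TPM did not call TNFAIP3 (1.05, adjusted p = 0.0215). NFKB1, NFKB2, RELB, NFKBIA, NFKBIZ and STAT3 also rose, by 0.71 to 1.27. In the same libraries CXCL1 and CXCL8 stood at −0.50 and −0.53 and did not pass. The other cluster genes of the set did not pass either, with CXCL2 at 0.34, CXCL5 at −0.10 and CXCL3 at −0.16. CXCL6, the cluster gene between CXCL8 and CXCL1, fell from 29, 25 and 27 counts to 7, 4 and 11 (log2 fold change −1.81, SE 0.35, edgeR adjusted p = 0.00175). A link between these genes and the 20 listed was not tested.

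In Pa-Tu-8902, 3 of the 20 rose (BCL3, BIRC3 and CEBPD) and SOCS3 fell, with a median of −0.16. Over all genes 9.22% rose and 7.12% fell. CEBPD rose by 1.42 (SE 0.10), BCL3 by 1.18 (SE 0.08) and BIRC3 by 0.73 (SE 0.06). SOCS3, the feedback inhibitor that STAT3 induces, had a log2 fold change of −0.61 (SE 0.09). STAT3 itself was at 0.42 (SE 0.04), under the fold limit, and whether STAT3 signalling changed was not tested. The interaction passed for 11 of the 20, with BCL3 and MYD88 higher and 9 lower in Pa-Tu-8902, among them BIRC3 (−2.08, SE 0.09), TNFAIP3 (−1.65, SE 0.15) and NFKB2 (−1.62, SE 0.08), and over all genes 6.56% were higher and 3.86% lower. Limma on TPM did not call the TNFAIP3 difference (−1.36, adjusted p = 0.0138). At baseline 14 of the 20 were higher and 0 lower in Pa-Tu-8902 (over all genes, 28.9% were higher and 29.3% lower). BIRC3 was at 6756 ± 300.4 against 273 ± 1.24 normalised read counts, IRAK2 was higher by 4.67 (SE 0.11) and TNFAIP3 by 3.51 (SE 0.13). Of the 5 genes with the shared promoter letters, CXCL1, CXCL2, CXCL5 and CXCL8 were lower in Pa-Tu-8902 at baseline, and CXCL3 did not pass (−0.09). CCL20 and IL6, which also match the NF-κB consensus, went the other way. CCL20 was at least 4.56-fold higher in −dox Pa-Tu-8902, and IL6 had 7 counts there against 0. The part of NF-κB in these levels was not tested.

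**Figure D4:**
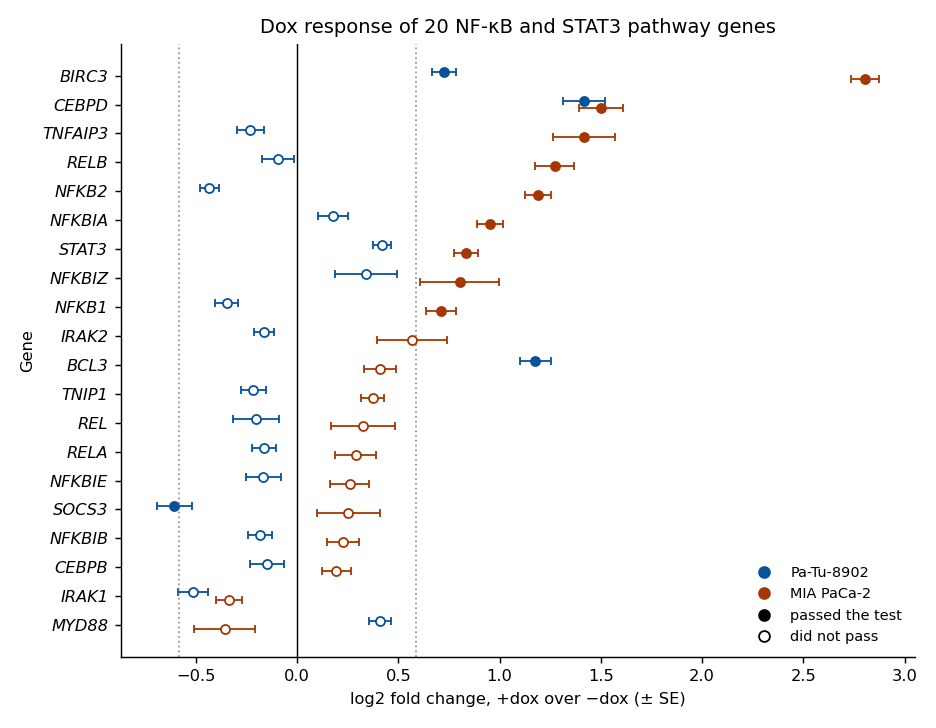
log2 fold change of +dox over −dox with its SE for 20 NF-κB and STAT3 pathway genes in Pa-Tu-8902 (blue) and MIA PaCa-2 (orange), filled where the gene passed both limits and ordered by the value in MIA PaCa-2. In MIA PaCa-2 9 genes passed, led by BIRC3 at 2.80, and in Pa-Tu-8902 4 genes passed.

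Genes of message decay and interleukin-1 release were also read. In Pa-Tu-8902, 5 of 13 passed, against 16.3% of all tested genes. CASP1, which cleaves the IL1B precursor, rose from 1.45 ± 1.28 to 26.8 ± 10.1 normalised read counts (log2 fold change 4.08, SE 0.62), whereas the inflammasome sensor NLRP3 fell, from 234 ± 9.55 to 82.6 ± 7.33. ZC3H12A, a ribonuclease that degrades cytokine messages, rose by 0.89 (SE 0.09), and ZFP36 and CAPN1, which encodes a protease able to cleave the IL1A precursor, had log2 fold changes of −0.59 (SE 0.12) and −0.87 (SE 0.08) and passed. In MIA PaCa-2, 1 of 9 tested passed (12% of all tested genes did), ZC3H12A at 0.60 (SE 0.11), which lost its call without −dox replicate 3 (0.53), +dox replicate 1 (0.56) or +dox replicate 2 (0.58). The interaction passed for 2 of 13 tested, where 10.4% of all tested genes passed. These were ZFP36 (−0.97, SE 0.16) and ZFP36L1 (−0.78, SE 0.09), both lower in Pa-Tu-8902. GSDMD, PYCARD and NLRP3, parts of the release machinery for IL1B, were present with IL1B in −dox Pa-Tu-8902 (3340 ± 48.2, 178 ± 35.8 and 216 ± 5.96 normalised read counts) and stood at 0.334, 0.318 and 2.30 in −dox MIA PaCa-2, where IL1B was not detected.

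Few other chemokines were expressed. Of 15 listed, 3 could be tested in Pa-Tu-8902 but 2 in MIA PaCa-2. For Pa-Tu-8902, 0 passed by edgeR and 0 by DESeq2. All 3 had an unadjusted p below 0.05, but no share over all genes was computed for that limit. At an adjusted p below 0.01 with no fold limit, 38.1% of all tested genes passed by edgeR. The 3 genes were CXCL10 (log2 fold change 1.59, SE 0.45), CCL5 (1.29, SE 0.36) and CXCL16 (0.45, SE 0.10). CXCL10 was sparse, at 3.67 ± 0.821 normalised read counts without and 11.3 ± 1.64 with dox. CXCL16 had an interaction of 0.86 (SE 0.16, edgeR adjusted p = 6.66e-04), the 1 call among 4 tested, where 10.4% of all tested genes passed. Of 19 other cytokines and growth factors, 5 of 13 tested passed in Pa-Tu-8902 (16.3% of all tested genes did) and 3 of 10 in MIA PaCa-2 (12% of all). EBI3, a subunit of interleukin-27 and interleukin-35, rose in both lines, from 4.05 ± 1.43 to 24.3 ± 7.74 normalised read counts in Pa-Tu-8902 and from 0.671 ± 0.581 to 12 ± 1.52 in MIA PaCa-2. IL32 rose in both as well, by 1.15 (SE 0.14) and 3.26 (SE 0.37), but in MIA PaCa-2 from only 5.31 ± 2.73 to 51.1 ± 7.97 normalised read counts. In Pa-Tu-8902 TNFSF10 (TRAIL) rose by 2.67 (SE 0.37), from a low 4.49 ± 1.61 to 28.6 ± 1.88 normalised read counts. IL23A had a log2 fold change of −1.66 (SE 0.21) there. In MIA PaCa-2 CSF1, the macrophage growth factor, rose by 0.62 (SE 0.07), but was at 0.58 and did not pass without −dox replicate 2. At baseline all 12 tested cytokines passed (58.1% of all tested genes did), 10 of them higher in Pa-Tu-8902, led by IL18 at 4445 ± 256 against 11.9 ± 1.74 normalised read counts, and CSF2 and IL7 had 0 counts in −dox MIA PaCa-2.

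For the 2 genes with the highest mean level, the genes of most similar pattern were sought among 11667 genes whose mean reached 100 counts, by Pearson correlation of log2(CPM + 1) centred within each line over the 12 libraries. For CXCL1 these were PLA2G16 (r = 0.98), SNCG (0.98) and AL353751.1 (0.98). For IL1A they were TMC4 (0.96), ZNF672 (0.94) and HSD3B7 (0.94). The libraries share line, treatment and depth, the IL1A values come from Pa-Tu-8902 alone, and r is given as a description.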

How the data were processed

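Poly(A) RNA of 12 libraries in 4 groups of 3 was sequenced in pairs. Per the submitters' processing notes and the study's methods, the authors trimmed reads with Trimmomatic 0.39 and quantified them with RSEM 1.3.1 and STAR 2.5.2a on GRCh38 (GENCODE v29). The deposited gene and isoform tables hold expected counts, neither normalised nor filtered, of which 5.34% are not whole, and TPM, which the authors' RSEM run scaled by transcript length. FPKM tables and the per-sample copies were not used.

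Expected counts were rounded, scaled by TMM and tested with edgeR 4.0.16 (glmQLFit, glmQLFTest; R 4.3.3) over every gene for which 3 or more libraries in the fit held 10 or more counts. The 3 two-group fits used 6 libraries each and the interaction all 12. Calls needed a Benjamini-Hochberg adjusted p below 0.01 over all tested genes and a 1.5-fold change. The SE is the absolute log2 fold change over the square root of F. A normalised read count is the count over the library's TMM size relative to the mean of the fit, so it is compared within a fit only. TPM were tested in the limma alternative only. Alternatives were DESeq2 1.42.0, its size factors, other filters and thresholds, a fit of all libraries, limma 3.58.1 on log2(TPM + 0.1), a replicate block and each library left out, keeping the genes tested. The pipeline was tested on simulated data. Between replicates, chi-square over its degrees of freedom was 2.25 to 27.3, above sampling noise for every pair.

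Named are all 10 members, GOT1, the 3 called genes of largest change per list and comparison, genes needed for counts of 5 or fewer, and the 3 most correlated genes of the 2 highest members. Other genes given were chosen after their values were seen. The members and lists were chosen with earlier results of these data known. Promoter windows are from RefSeq; UTRs and positions are from GENCODE release 44.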

Additional observations from a re-analysis of the deposited data

Results flagged for a closer look

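In 3 of the 9 genes tested, IL6 being the untested gene, the dox response differed between Pa-Tu-8902 and MIA PaCa-2 by the interaction contrast of edgeR, as it did in 10.4% of all tested genes. Among the 9, IL1A, IL1B and CCL20 had at most 1 count in MIA PaCa-2 and could not show a difference, so these shares are not alike. LIF differed by −1.18 on the log2 scale, with 3 of 3 +dox libraries below all −dox libraries in Pa-Tu-8902 and overlapping groups in MIA PaCa-2. CXCL1 differed by 1.5, with all 3 +dox libraries above the −dox libraries in Pa-Tu-8902 and all 3 below them in MIA PaCa-2. CXCL5 differed by 3.28, a value that rested on 1 count without and 14 counts with dox in Pa-Tu-8902 and that DESeq2 did not call (adjusted p = 0.0175).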

How the results depend on the processing

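Of 515 values of single members under alternatives, 485 kept their direction and their side of the threshold, 7 lost the call, 18 gained it and 5 changed sign. Of 718 values of the named list genes, 689 kept both and 29 lost the call. The 7 losses were all of the CXCL5 difference. The sign changes were of members that were not called: CXCL2 in Pa-Tu-8902 (0.0026 without −dox replicate 2, 0.096 without +dox replicate 2), LIF in MIA PaCa-2 (0.049 in limma, 0.022 without −dox replicate 3) and CXCL3 at baseline (0.072 without −dox replicate 1 of MIA PaCa-2). With libraries left out these values ranged from −0.19 to 0.096, −0.080 to 0.022 and −0.21 to 0.072. The members called in MIA PaCa-2 went from 0 to 2 with no fold limit, at an adjusted p below 0.01 or below 0.05, and ranged from 0 to 1 with libraries left out. At baseline they went from 7 to 3 where 10 counts were needed in every library, since IL1A, IL1B, CCL20 and CXCL5 were then not tested. Over all genes, dropping the fold limit gave 5692 calls in place of 2443 in Pa-Tu-8902, 3973 in place of 1751 in MIA PaCa-2 and 2799 in place of 1724 for the interaction, and at an adjusted p below 0.05 also 7619, 6116 and 4432. Calls per list ranged over the alternatives, in Pa-Tu-8902 and MIA PaCa-2, from 3 to 14 and 7 to 16 for the NF-κB and STAT3 genes, 2 to 7 and 0 to 4 for receptors, 3 to 10 and 0 to 6 for decay and release, 3 to 8 and 1 to 5 for cytokines, and 0 to 3 and 0 to 2 for other chemokines. For the interaction they ranged from 1 to 6 for receptors, 1 to 4 for cytokines and 1 to 4 for other chemokines, and at baseline from 4 to 13 for cytokines and 0 to 3 for other chemokines. Residuals of libraries with the same replicate number correlated by −0.152 to 0.139, so the numbers did not pair the libraries. With the replicate block the CXCL5 difference was 3.28 (adjusted p = 0.0106) and not called, and among the other members no call changed. The baseline fits of genes at 0 in a line depend on the floor: IL1A moved between 9.99 and 15.3 and CXCL5 between −12.4 and −6.89. Depth limits IL6, CCL20 and CXCL5 in Pa-Tu-8902. In order of level, normalised counts in place of TPM changed the rank of 4 members in each Pa-Tu-8902 group, 0 in −dox and 2 in +dox MIA PaCa-2.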

Other observations

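CCR6, the receptor of CCL20, was listed with 19.5, 30.8 and 7.89 expected counts in the −dox libraries of MIA PaCa-2 and 0 in its +dox libraries. It did not reach 10 counts in 3 libraries and so was not tested, and these counts are fractional, which means that RSEM divided reads between features. In Pa-Tu-8902 it reached at most 2.14 expected counts in a library. The gene was chosen after its values were seen.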
